A study of Rattus norvegicus with 16 samples.

Results

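Pink1, which encodes a mitochondrial kinase, was examined together with genes that lie near it on rat chromosome 5. The genes were picked by symbol from a list of 10 that was drawn up with earlier results of these data known, namely Pink1, Ddost, Kif17, Sh2d5, Hp1bp3, Cda, Mul1, Camk2n1, Padi2 and Klhdc7a. Of these, 9 had a row in both gene tables, out of 14857 genes in either table, and they were joined by Ensembl ID. Cda, a cytidine deaminase, had no row in either table under that symbol.

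Transcripts were measured by RNA sequencing of the periaqueductal gray (PAG), the cell-rich tissue around the midbrain aqueduct, which helps to drive vocalization and to modulate pain. The 16 libraries came from Long Evans rats aged 8 months, and the groups were female Pink1-/-, female WT, male Pink1-/- and male WT, with 4 libraries in each. The labels gave genotype and sex as what set the groups apart and named no drug or other treatment, but the libraries of females and males are named in unlike styles. Per gene and sex the tables gave the authors' average level over both genotypes and the authors' own comparison of the genotypes. That comparison was not used here, so no value of Pink1-/- rats is set against one of WT rats, and the knockout of Pink1 could not be checked in single animals. All levels below are therefore authors' means over Pink1-/- and WT libraries together, with no error and no value per library.

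PINK1 protein accumulates on the surface of damaged mitochondria, where it phosphorylates ubiquitin. The marked mitochondria are then taken up by autophagy, which is mitophagy. Inherited loss of PINK1 causes early-onset Parkinson disease in humans, and rats without Pink1 are used as a model of it. A gene next to a deleted gene is inherited with it, which is the reason to look at neighbours in a knockout line.

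In the RefSeq annotation of assembly GRCr8, Hp1bp3, Sh2d5, Kif17, Ddost, Pink1 and Cda followed each other with no other protein-coding gene between them. Ddost read on the plus strand and Pink1 on the minus strand, so that their 3′ ends faced each other. Fam43b stood between Cda and Mul1, and Camk2n1 came directly after Mul1. Klhdc7a and Padi2 were farther away, with 30 and 39 protein-coding genes between them and Pink1. The build used by the authors is not given in the sources used here, so this order may differ from theirs.

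Start-site windows of the genes are shown for 3 members, from the RefSeq promoter table of GRCr8, each with 250 bases before and 50 after the annotated start. Pink1 is the deleted gene, Ddost is the gene beside it, and Klhdc7a had the fewest CG dinucleotides. Capitals mark each CG. The windows are chr5:155825901-155826200 on the minus strand for Pink1, chr5:155805362-155805661 on the plus strand for Ddost and chr5:157507794-157508093 on the minus strand for Klhdc7a.
Pink1: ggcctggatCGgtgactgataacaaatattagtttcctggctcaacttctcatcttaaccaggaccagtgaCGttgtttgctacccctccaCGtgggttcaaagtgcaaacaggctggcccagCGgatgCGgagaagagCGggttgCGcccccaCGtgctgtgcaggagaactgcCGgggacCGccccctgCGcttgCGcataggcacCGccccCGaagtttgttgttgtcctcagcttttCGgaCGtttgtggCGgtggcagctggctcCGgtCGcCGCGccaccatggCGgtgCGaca
Ddost: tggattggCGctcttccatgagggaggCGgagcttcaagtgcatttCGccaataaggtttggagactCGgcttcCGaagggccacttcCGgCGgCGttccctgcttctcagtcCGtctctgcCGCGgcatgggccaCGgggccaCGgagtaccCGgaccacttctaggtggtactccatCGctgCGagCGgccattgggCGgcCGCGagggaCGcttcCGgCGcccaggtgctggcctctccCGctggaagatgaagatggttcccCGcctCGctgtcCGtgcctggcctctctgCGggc
Klhdc7a: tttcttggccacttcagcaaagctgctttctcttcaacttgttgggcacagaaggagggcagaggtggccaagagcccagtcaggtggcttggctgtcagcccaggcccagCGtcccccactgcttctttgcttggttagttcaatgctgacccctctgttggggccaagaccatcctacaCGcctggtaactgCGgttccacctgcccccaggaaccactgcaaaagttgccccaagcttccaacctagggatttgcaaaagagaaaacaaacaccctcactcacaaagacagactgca

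The windows of Pink1 and Ddost held 23 and 28 CG dinucleotides, whereas that of Klhdc7a held 3. Across all 33469 windows in the table the median was 7. Windows with at least as many CG as Pink1 made up 19.5% of the table, and the share was 12.7% for Ddost and 77.7% for Klhdc7a. Of the 10 genes, 8 had a window. Kif17 held 28 CG, Padi2 24, Mul1 23, Sh2d5 19 in its first of 7 windows, and Cda 15, so that Klhdc7a was the only one of the 8 below the median of all windows. The letters TATAAA, searched on both strands, were in none of the 8 windows and in 14.2% of all windows. These are descriptions of sequence and no measurement of promoter use.

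Average levels were given as log2 CPM, which is the log2 of read counts scaled to a fixed library total. CPM is not divided by transcript length, so it tells the share of reads a gene took and not its number of transcripts relative to another gene. Both tables were normalized separately, and for that reason each gene's percentile among all genes of its own table is given beside its level. The median gene had 16.1 CPM among 14272 genes in females and 13.2 CPM among 14316 genes in males. Of the 9 genes with a row, 7 lay above the median of the table in females and 7 in males, and their own median was at percentile 69.8 in females and 68.6 in males.

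Pink1 averaged 6.08 log2 CPM (67.5 CPM) in the female table and 5.13 log2 CPM (35.0 CPM) in the male table. This placed it at percentile 84.6 in females and 74.2 in males. Since the mean includes libraries of rats that lack Pink1, it describes neither genotype.

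The genes on the Ddost side of Pink1 covered the whole range of the group in both tables. Ddost, a subunit of the enzyme complex that attaches sugar chains to new proteins in the endoplasmic reticulum, averaged 48.9 CPM in females and 28.8 CPM in males, at percentiles 78.1 and 69.7. Kif17, a kinesin motor that carries NMDA receptor vesicles in dendrites, averaged 4.89 CPM in females and 2.63 CPM in males. Its percentiles of 23.9 and 16.7 were the lowest among the 9 genes in both tables. Sh2d5, an adaptor protein with an SH2 domain, averaged 34.2 CPM in females and 27.4 CPM in males, at percentiles 69.8 and 68.6. Hp1bp3, a chromatin protein related to the linker histones, averaged 124.5 CPM in females and 127.3 CPM in males. It took the most reads of the 9 genes in both tables, at percentiles 92.9 and 94.3.

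On the Cda side, Mul1, Camk2n1 and Padi2 lay above the median of both tables and Klhdc7a below it. Mul1, a ubiquitin ligase of the mitochondrial outer membrane that also acts in mitochondrial quality control, averaged 33.8 CPM in females and 20.0 CPM in males, at percentiles 69.5 and 60.9. Camk2n1, an inhibitor of calcium/calmodulin-dependent kinase II, averaged 30.5 CPM in females and 23.7 CPM in males, at percentiles 66.9 and 65.0. Of the farther genes, Padi2, an enzyme that turns protein arginine into citrulline and is made by oligodendrocytes and other glia, averaged 72.6 CPM in females and 50.03 CPM in males, at percentiles 85.8 and 81.6. Klhdc7a, a protein with kelch repeats, averaged 11.1 CPM in females and 3.63 CPM in males. It and Kif17 were the 2 genes below the median of both tables.

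**Figure D1:**
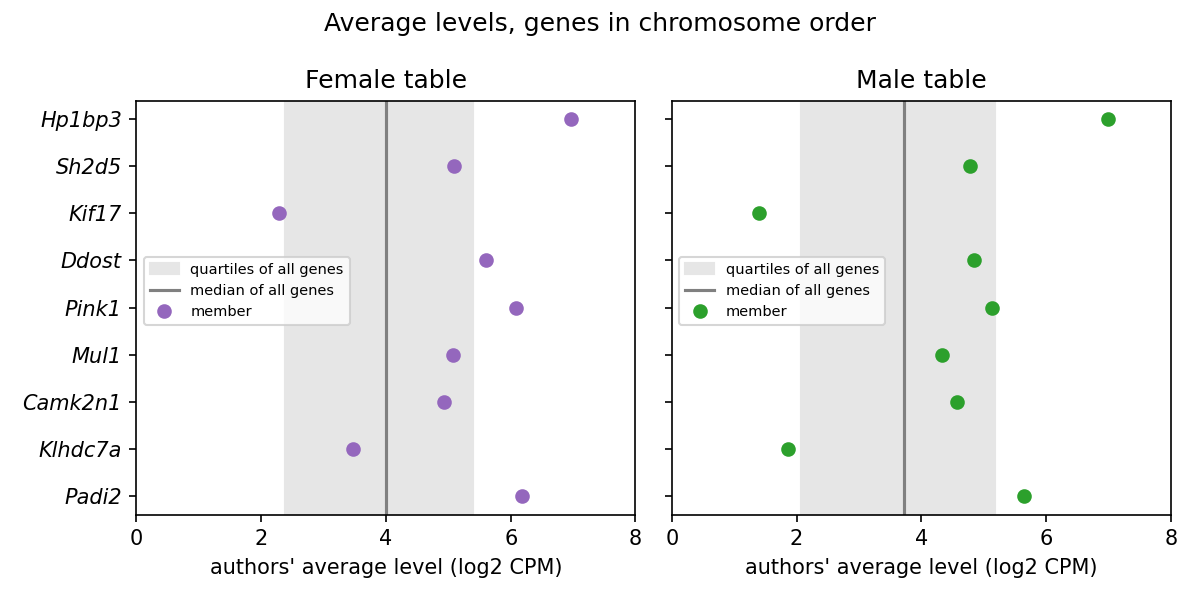
Authors' average level in log2 CPM for the 9 genes with a row, in chromosome order from top to bottom, in the female table and the male table. Points are means over Pink1-/- and WT libraries with no error available, the line is the median of all genes and the band runs between their quartiles. Kif17 and Klhdc7a lie left of the line in both tables, and Hp1bp3 lies farthest right.

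Percentiles of the same gene were then set side by side between the tables. For 8 of the 9 genes the percentile was higher in the female table, which was the case for 46.0% of the 13731 genes in both tables. Klhdc7a had the widest gap, at percentile 40.5 in females and 22.3 in males. This difference of 18.2 percentile points was reached or passed by 3.85% of shared genes, whose median gap was 4.42 points in either direction. For Pink1 the gap was 10.4 points, reached by 16.7% of shared genes. Hp1bp3 was the 1 gene with a lower percentile in females, with a difference of -1.38 points, and Sh2d5 and Camk2n1 differed by 1.24 and 1.85 points. No test was possible without values per library, and sex and a possible cohort, given the unlike library names, cannot be told apart.

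The other protein-coding genes of the same stretch, from Hp1bp3 to Padi2, were counted for comparison. Only Fam43b among them stood between Hp1bp3 and Camk2n1, and the rest lay beyond Camk2n1 on the side of Padi2. They therefore describe the farther part of the stretch and not the close surroundings of Pink1. Of 35 such genes, 20 had a row in the female table and 19 in the male table when matched by symbol or synonym. Among them 9 lay above the median of the table in females and 7 in males, with a median percentile of 37.1 in females and 34.6 in males. The list of 10 genes was not drawn at random from the stretch, so this is a description only.

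Genes of the PINK1 pathway were taken from a list of 27, chosen for a link to PINK1 or to mitophagy. Of these, 26 had a row in both tables, and 23 in females and 22 in males lay above the median of the table. Their median percentile was 85.6 in females and 84.7 in males. Tomm7, a subunit of the outer membrane import complex that holds PINK1 there, averaged 34.2 CPM in females and 33.0 CPM in males. Usp30, a deubiquitinase of the mitochondrial outer membrane that opposes mitophagy, averaged 41.4 CPM in females and 21.9 CPM in males. Parl, the inner membrane protease that cleaves imported PINK1, averaged 14.9 CPM in females and 11.5 CPM in males, just under the median of both tables. The autophagy receptor Calcoco2 had no row under that symbol.

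Defining markers were used to check the labelled tissue. All 5 neuron markers and all 3 oligodendrocyte markers lay above the median of both tables. The neuron markers ranged between 20.0 CPM for Rbfox3 and 886 CPM for the presynaptic gene Snap25 in females, and between 21.7 and 1202 CPM for the same genes in males. The myelin gene Mbp averaged 4997 CPM in females and 2533 CPM in males. Of the 3 astrocyte markers, 3 in females and 2 in males lay above the median of the table, and none of the 3 microglia markers did in either table, with 6.19 to 11.3 CPM in females and 6.09 to 11.4 CPM in males. Of the endothelial markers, Cldn5, a tight junction gene, averaged 36.5 CPM in females and 7.40 CPM in males, at percentiles 71.5 and 36.7. Flt1, a receptor of vascular growth factors, averaged 88.0 CPM in females and 79.9 CPM in males, at percentiles 88.8 and 89.1. Tph2, the enzyme of serotonin synthesis in raphe neurons that border the PAG, averaged 8.53 CPM in females and 13.9 CPM in males, and the serotonin transporter gene Slc6a4 averaged 2.59 CPM in females and 6.66 CPM in males. The dopamine neuron genes Th and Slc6a3 had rows only in the male table, at 1.24 and 0.808 CPM. Gabra6, a receptor subunit of cerebellar granule neurons, had no row in females and averaged 9.29 CPM in males, and Neurod1 averaged 1.02 CPM in females and 3.14 CPM in males. The ependymal gene Foxj1 had no row in either table. Whether these marker levels bear on those of the 9 genes was not tested, and in bulk tissue fewer cells of a type and less RNA per cell cannot be told apart.

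**Figure D2:**
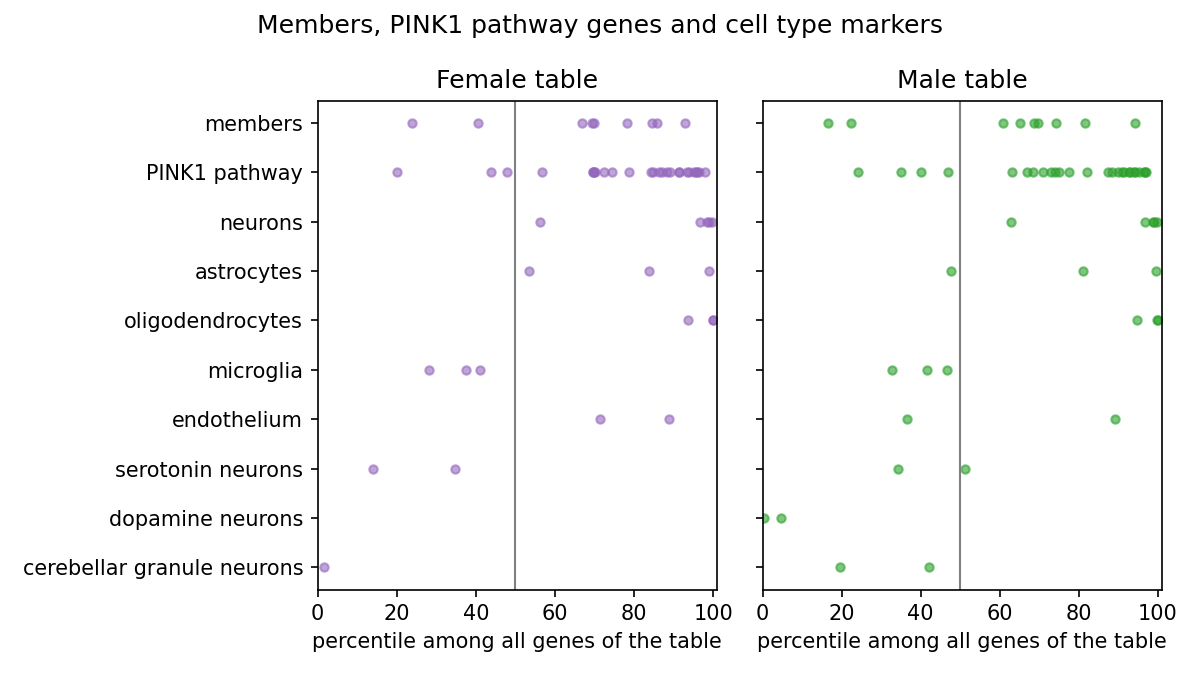
Percentile among all genes of the table for each gene with a row, by list, in the female table and the male table. Each point is 1 gene and the line marks percentile 50. Of the 26 PINK1 pathway genes, 23 in females and 22 in males lie right of the line, as do 7 of the 9 members in each table.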

How the data were processed

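RNA was extracted from frozen PAG tissue and libraries were made with Illumina's TruSeq RNA kit, per the labels. The submitters' processing notes name RSEM and edgeR 3.9. Which aligner, genome build and annotation were used, and how genes of low counts were filtered, is not given in the sources used here.

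For each sex the authors deposited 1 table with an average log2 CPM per gene. From its column header it was read as an average over the 8 libraries of that sex, both genotypes pooled. The tables also hold the authors' own comparison of Pink1-/- with WT (log2 fold change, likelihood ratio, p-values and status), which was not used. No column was named for a library, so the planned genotype tests could not be run, and neither depth nor the spread over animals is known. The lowest average was 0.503 CPM in the female table and 0.463 CPM in the male one.

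The percentile of a gene is the share of genes of its table at or below its level. All 10 members were named, with up to 4 PINK1 pathway genes. The pathway list was planned with a further gene, which is not reported here and is left out of its counts, so that 27 genes remain. Members and lists were chosen with earlier results of these data known. Of the 10 members, 8 matched the RefSeq promoter table. Alternatives ranked the members only among genes in both tables, named genes or genes of at least 1 CPM. Only the percentile and CG count functions were tested, on made-up inputs with known answers. Calculations used Python 3.11.15, numpy 2.4.6, pandas 2.3.3 and scipy 1.17.1.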

Additional observations from a re-analysis of the deposited data

How the results depend on the processing

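The count of 7 members above the median of the table stayed at 7 in both tables under each alternative. Members were ranked only among the 13731 shared genes, only among named genes, or only among genes of at least 1 CPM. The member closest above the median was Mul1 in males, at percentile 60.9. All shifts were downward and smaller than its distance from the median, so the count could not change and is no test of robustness. Percentiles of single members shifted by -2.88 to -0.24 points among shared genes and by -3.80 to -0.55 points among named genes. Among genes of at least 1 CPM they shifted by -1.45 to -0.10 points. A percentile was counted as moved when it left the 95% Wilson interval, an interval for a proportion, around its first value. By this rule 15 of 18 percentiles moved among shared genes and 18 of 18 among named genes. The count was 4 of 18 among genes of at least 1 CPM. The planned filter, normalization and leave-one-out alternatives of the genotype comparison were not run, since no values per library were analysed. No paired analysis was possible because the results come from no test and the columns carry no replicate numbers. Depth is unknown, so no interval on a level is given.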
